A study of Mus musculus with 16 samples.

Results

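Transcript levels of Dtx3l and of 8 genes of the PARP family were read from RNA sequencing of mouse epidermis. The members are the rows of the raw count table whose Ensembl identifiers map to Dtx3l, Parp9, Parp14, Parp10, Parp11, Parp12 and Zc3hav1, which are known interferon-induced genes, and to Parp1 and Parp2, which are made constitutively in most cells. All 9 were found among the 49585 genes of the table, and all 9 passed the filter on low counts, with 33 counts in the lowest library of Parp11, the lowest count of any member.

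PARP proteins transfer ADP-ribose from NAD onto proteins or nucleic acids. PARP1 and PARP2 are activated by DNA breaks and build chains of ADP-ribose at damage sites, whereas most other members add a single unit or have lost the catalytic activity. Type I interferon is sensed by the receptor chains IFNAR1 and IFNAR2 and the kinases JAK1 and TYK2. These activate a complex that contains STAT2 and IRF9 and binds an interferon-stimulated response element (ISRE) near target genes. Several PARP genes and Dtx3l are such targets, and their products act on viral RNA, viral proteins or the interferon pathway itself. Ultraviolet B (UVB) makes DNA lesions in keratinocytes, the main cells of the epidermis, so both branches of the family can be read in one tissue.

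The samples came from SKH-1 mice, a hairless stock, that were 8 to 12 weeks old. Epidermis was freed by heat shock from mice with an epidermal knockout of C/EBPβ, a transcription factor encoded by Cebpb, and from K5Cre mice, which carry the recombinase alone and are called controls here. Each genotype was sampled without UVB (unexposed) or 6 h after a UVB dose of 100 mJ/cm2 (exposed), and each of the groups (exposed knockout, unexposed knockout, exposed control, unexposed control) had 4 libraries. The keratin 5 promoter named in the control label acts in basal keratinocytes, and no label gives the driver of the knockout or reports deletion in immune cells or melanocytes. Since no label ties a library to an animal, the p-values cover the spread among these libraries alone, which may be technical.

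Letters near the starts of the genes are shown here because the ISRE is the sequence by which interferon-induced genes are usually recognised. RefSeq promoter windows on GRCm38.p6, from 250 bases before to 50 after a start, were found for 6 of the 9 members. Windows were not found for Parp9, Parp14 and Parp10. The motifs searched on both strands were the ISRE core GAAANNGAAA (TTTCNNTTTC on the other strand), the STAT site TTCNNNGAA, which is its own reverse, and the C/EBP core TTGCNNAA. A match was found in 1 of the 6 members, Parp11, where an ISRE core (TTTCGATTTC) runs from 44 to 35 bases before the start and a STAT site (TTCTTGGAA) from 37 to 29 bases before it, so that the matches overlap by 3 letters. The capitals below mark this stretch of the Parp11 sequence, the 80 bases before its start on the plus strand at chr6:127446760-127446839. The Parp12 sequence covers the 80 bases before its start on the minus strand at chr6:39118350-39118429. The Dtx3l sequence covers 71 bases from 250 to 180 before its RefSeq start on the minus strand at chr16:35939207-35939277. The GENCODE gene span of Dtx3l given below starts at chr16:35939151 on this strand, which is nearer to the stretch. The Parp12 and Dtx3l sequences are shown for comparison because these genes gave large changes in what follows, and neither held a match.
Parp11: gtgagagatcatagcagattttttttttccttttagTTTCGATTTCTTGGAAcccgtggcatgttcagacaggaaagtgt
Parp12: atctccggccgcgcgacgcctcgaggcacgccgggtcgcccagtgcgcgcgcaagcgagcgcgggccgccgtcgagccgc
Dtx3l: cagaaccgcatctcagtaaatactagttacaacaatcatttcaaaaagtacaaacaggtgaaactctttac
Among all 32851 promoter windows, 3.44% held the ISRE core, 8.3% the STAT site and 10.8% the C/EBP core. A match is a description of letters and not a site in use, and no match says only that these letters are not in this window.

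The 16 libraries held 33.0 to 53.3 M counts. Cebpb read 0.609 to 3.04 CPM (read counts scaled to library size) in exposed knockouts and 0.177 to 0.875 CPM in unexposed knockouts, against 253 to 320 CPM in exposed controls and 155 to 186 CPM in unexposed controls. At equal depth 19201 to 21548 genes were detected in exposed knockouts and 18791 to 21172 in unexposed knockouts, against 16982 to 19315 in exposed controls and 18451 to 19939 in unexposed controls. The mitochondrial share of counts was 5.44% to 5.99% in exposed knockouts and 4.33% to 10.2% in unexposed knockouts, against 5.24% to 9.65% in exposed controls and 5.62% to 8.57% in unexposed controls. The keratinocyte markers Krt5, Krt14, Krt1, Krt10 and Trp63 summed to at least 13970 CPM in every library, and the fibroblast markers to at most 10 CPM. In bulk tissue, fewer cells of a type and less RNA per cell cannot be told apart.

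The first comparison set knockout against control in epidermis without UVB. Dtx3l, Parp9 and Parp14, which are neighbours on chromosome 16, rose in unexposed knockout epidermis to between 2.30 and 2.78 times their control level. The other interferon-induced members read 1.26 to 2.01 times the control level without passing the test, and Parp1 and Parp2 did not pass it either. The 3 genes that rose make 3 of 7, where 0.964% of 17741 tested genes were called higher (edgeR quasi-likelihood test, adjusted p under 0.05). All 7 fitted differences were positive, with a median log2 fold change of 1.01, against 0.00 over all genes tested. In 5 of the 7, every knockout library lay above every control library, as for 4.64% of all genes tested. The count of 3 was 1 without control library 1, 3 or 4 or knockout library 1, and 2 without each of the other libraries.

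Dtx3l (ENSMUSG00000049502, chr16:35926511-35939151, minus strand, GRCm38) encodes a ubiquitin ligase of the Deltex family that works as a pair with PARP9. Its level was 41.1, 27.9, 32.3 and 39.6 CPM in unexposed knockout libraries 1 to 4, against 13.6, 17.2, 16.9 and 13.4 CPM in unexposed control libraries 1 to 4. The lowest knockout library stood well above the highest control library. Dtx3l rose by a log2 fold change of 1.20 (SE 0.22, edgeR adjusted p = 0.00495) and passed the test without each of the 8 libraries in turn, with adjusted p-values up to 0.0276.

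Parp9 (ENSMUSG00000022906, chr16:35938470-35972605, plus strand) encodes a macrodomain protein, one that binds ADP-ribose, and is the partner of DTX3L. It read 50.3, 36.1, 45.3 and 33.0 CPM in unexposed knockout libraries, against 16.1, 19.2, 17.7 and 12.2 CPM in unexposed control libraries. The groups did not overlap, and knockout library 1 was the highest. Parp9 rose 2.53-fold (log2 fold change 1.34, SE 0.30, edgeR adjusted p = 0.024). The call was lost without control library 1, 3 or 4 (edgeR adjusted p = 0.0627, 0.0773 and 0.11) and without knockout library 1 or 3 (0.0856 and 0.0505).

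Parp14 (ENSMUSG00000034422, chr16:35832874-35871544, minus strand) encodes a large mono-ADP-ribosyltransferase with macrodomains that is also known as a cofactor of STAT6. It read 49.1, 33.1, 24.5 and 30.3 CPM in unexposed knockout libraries, against 12.4, 11.8, 13.04 and 12.2 CPM in unexposed control libraries. The controls lay close together, and the lowest knockout library, library 3, was still above all of them. Parp14 rose 2.78-fold (log2 fold change 1.47, SE 0.36, edgeR adjusted p = 0.0472). This call lay close to the threshold: it was kept without knockout library 3 (edgeR adjusted p = 0.0459) and lost without any other single library, namely control library 1, 2, 3 or 4 (edgeR adjusted p = 0.111, 0.123, 0.145 and 0.154) and knockout library 1, 2 or 4 (0.152, 0.115 and 0.0718), while the log2 fold change stayed between 1.25 and 1.60.

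Parp12 (ENSMUSG00000038507, chr6:39086410-39118349, minus strand) encodes a mono-ADP-ribosyltransferase with zinc fingers that bind RNA and with antiviral activity. It read 33.7, 21.5, 31.1 and 23.1 CPM in unexposed knockout libraries, against 12.0, 16.3, 13.6 and 12.6 CPM in unexposed control libraries. The groups did not overlap, but the log2 fold change of 1.01 (SE 0.34) did not pass the test across all genes (edgeR adjusted p = 0.162). With only these 2 groups in the fit it did (edgeR adjusted p = 0.00526). It did not pass with DESeq2 (adjusted p = 0.052), with upper-quartile scaling (edgeR adjusted p = 0.161) or without the filter on low counts (0.332). Leaving out any single library gave no call either (edgeR adjusted p = 0.176 to 0.404).

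Zc3hav1 (ENSMUSG00000029826, chr6:38305286-38354603, minus strand) encodes ZAP, a catalytically inactive PARP that binds CpG-rich viral RNA. It read 65.3, 60.3, 58.2 and 59.6 CPM in unexposed knockout libraries, against 44.1, 49.9, 48.1 and 49.3 CPM in unexposed control libraries. These groups also stood apart, with a log2 fold change of 0.35 that did not pass (SE 0.12, edgeR adjusted p = 0.184).

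Parp10 (ENSMUSG00000063268, chr15:76231174-76243441, minus strand), a mono-ADP-ribosyltransferase, read 49.1, 40.6, 56.7 and 53.2 CPM in unexposed knockout libraries, against 40.4, 37.2, 42.7 and 38.1 CPM in unexposed control libraries. Parp11 (ENSMUSG00000037997, chr6:127446840-127494261, plus strand), another mono-ADP-ribosyltransferase, read 5.52, 4.92, 3.98 and 5.16 CPM in unexposed knockout libraries, against 4.08, 4.40, 3.64 and 2.97 CPM in unexposed control libraries. In both genes the groups overlapped. The log2 fold changes of 0.33 for Parp10 (SE 0.16, edgeR adjusted p = 0.392) and 0.38 for Parp11 (SE 0.36, edgeR adjusted p = 0.817) were not called.

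Markers of Langerhans cells, the antigen-presenting cells of the epidermis, had fitted differences in the same direction as these members, apart from Ptprc (log2 fold change -0.18). Their 10 genes summed to 439.6 to 795.4 CPM in unexposed knockout libraries, against 244.3 to 502.3 CPM in unexposed controls, ranges that overlap. Of the 10, 3 (Csf1r, Mfge8, Cd86) rose, where 0.964% of all genes tested were called higher. The defining Langerhans marker Cd207 averaged 19.6 ± 7.41 CPM in unexposed knockouts and 13.9 ± 5.72 CPM in unexposed controls (SD, n = 4 each) and was not called. Of the 3 tested neutrophil markers, the chemokine receptor gene Cxcr2 rose to 24.7 ± 4.74 CPM in unexposed knockouts, against 11.7 ± 1.86 CPM in unexposed controls (SD, n = 4 each, no overlap, log2 fold change 1.08, edgeR adjusted p = 0.0215). The other tested neutrophil markers, Mpo and Csf3r, went the other way and were not called. Mpo averaged 0.0816 CPM in unexposed knockouts and 1.16 CPM in unexposed controls (edgeR adjusted p = 0.138), and Csf3r had a log2 fold change of -0.18. The basal keratin gene Krt14 rose as well, to 2594 CPM in unexposed knockouts, against 916 CPM in unexposed controls (log2 fold change 1.502, edgeR adjusted p = 0.0466). Its groups overlapped, and it was the 1 call among 5 keratinocyte markers. Krt5, Trp63 and Krt1 had log2 fold changes of 0.68, 0.26 and 0.07, and Krt10 had -0.39. The part of these shifts in the result was not tested.

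The second comparison set the genotypes against each other after UVB. Dtx3l, Parp9, Parp14 and Parp12 rose in exposed knockout epidermis to between 3.66 and 4.43 times their level in exposed controls. Parp10 rose 1.75-fold and Zc3hav1 1.42-fold. In all, 6 of the 7 interferon-induced members rose, where 2.36% of all genes tested were called higher. In the same 6, every exposed knockout library lay above every exposed control library, as for 6.47% of all genes tested. The median log2 fold change of the 7 was 1.87, against 0.04 over all genes tested. Parp11, Parp1 and Parp2 were not called. Library quality moved with this comparison, since exposed control libraries 1, 3 and 4 had mitochondrial shares of 8.57%, 9.59% and 9.65%, above all exposed knockouts, and exposed control library 2 had 5.24% and the most genes detected of its group (19315). Without exposed control library 2 the same count of 6 was called. That fit keeps only controls with mitochondrial shares above all exposed knockouts, so it cannot separate genotype from library quality. The part of library quality in the result was not tested.

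Dtx3l read 20.7, 28.4, 34.1 and 42.0 CPM in exposed knockout libraries 1 to 4, against 7.21, 12.3, 8.25 and 6.36 CPM in exposed control libraries 1 to 4. Exposed control library 2 was the highest of its group and still lay below every knockout library. The log2 fold change was 1.87 (SE 0.22, edgeR adjusted p = 7.3e-05), and between 1.71 and 2.12 without each library in turn. Parp9 read 19.9, 24.7, 32.7 and 41.5 CPM in exposed knockout libraries, against 5.41, 13.7, 4.26 and 6.85 CPM in exposed control libraries. The same control library 2 was the highest, and the groups stood apart. Parp9 rose 3.91-fold (log2 fold change 1.97, SE 0.31, edgeR adjusted p = 0.00121).

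Parp14 read 18.4, 27.8, 42.0 and 45.9 CPM in exposed knockout libraries, against 2.33, 9.02, 11.02 and 7.93 CPM in exposed control libraries. The knockouts spread widely, with library 1 the lowest, and remained above the controls. Parp14 rose 4.43-fold (log2 fold change 2.15, SE 0.37, edgeR adjusted p = 0.00397). Parp12 read 17.8, 20.3, 32.8 and 39.7 CPM in exposed knockout libraries, against 4.19, 14.1, 5.94 and 4.00 CPM in exposed control libraries. Control library 2 came close to the lowest knockout library without reaching it. The Parp12 log2 fold change was 1.96 (SE 0.35, edgeR adjusted p = 0.0039), and 2.57 without exposed control library 2, where the fit gave its largest value.

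Parp10 read 45.8, 43.9, 65.6 and 73.1 CPM in exposed knockout libraries, against 28.3, 35.8, 34.6 and 31.8 CPM in exposed control libraries. The 2 upper knockout libraries, 3 and 4, lay well above the other 2, and all 4 lay above the controls. The Parp10 log2 fold change was 0.81 (SE 0.16, edgeR adjusted p = 0.00588). Zc3hav1 read 57.5, 66.8, 70.9 and 82.4 CPM in exposed knockout libraries, against 56.6, 44.9, 50.8 and 43.7 CPM in exposed control libraries. The gap between the groups was narrow, since exposed control library 1 almost reached knockout library 1. The Zc3hav1 log2 fold change was 0.50 (SE 0.12, edgeR adjusted p = 0.0228). It missed the threshold without exposed control library 3 or 4 (edgeR adjusted p = 0.0603 and 0.08), without exposed knockout library 2, 3 or 4 (0.0513, 0.0568 and 0.0617), and with only the 2 groups in the fit (0.0741).

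Parp11 read 1.97, 2.94, 2.67 and 2.97 CPM in exposed knockout libraries, against 2.91, 0.755, 1.43 and 1.32 CPM in exposed control libraries. Exposed control library 1 lay within the knockout range, and the other 3 lay below it. The log2 fold change of 0.72 was not called (SE 0.36, edgeR adjusted p = 0.276).

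Langerhans cell markers summed to 723.4 to 916.7 CPM in exposed knockout libraries, against 364.8 to 540.4 CPM in exposed controls, ranges that do not overlap. Of these markers 6 of 10 rose, where 2.36% of all genes tested were called higher. Cd74, which encodes the invariant chain of MHC class II, had a log2 fold change of 0.96 (edgeR adjusted p = 0.0271). Of 5 keratinocyte markers 1 was called, the basal keratin gene Krt5, which rose by 1.14 on the log2 scale (edgeR adjusted p = 0.00641). The log2 fold changes of Krt14 and Trp63 were 1.27 and 0.24, and those of Krt1 and Krt10 were -0.05 and -0.27. Of the markers of T cells, neutrophils, monocytes, fibroblasts, endothelium and melanocytes, none was called between the exposed genotypes in the edgeR test. What the Langerhans cell and keratin genes contribute to the result was not tested.

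**Figure D1:**
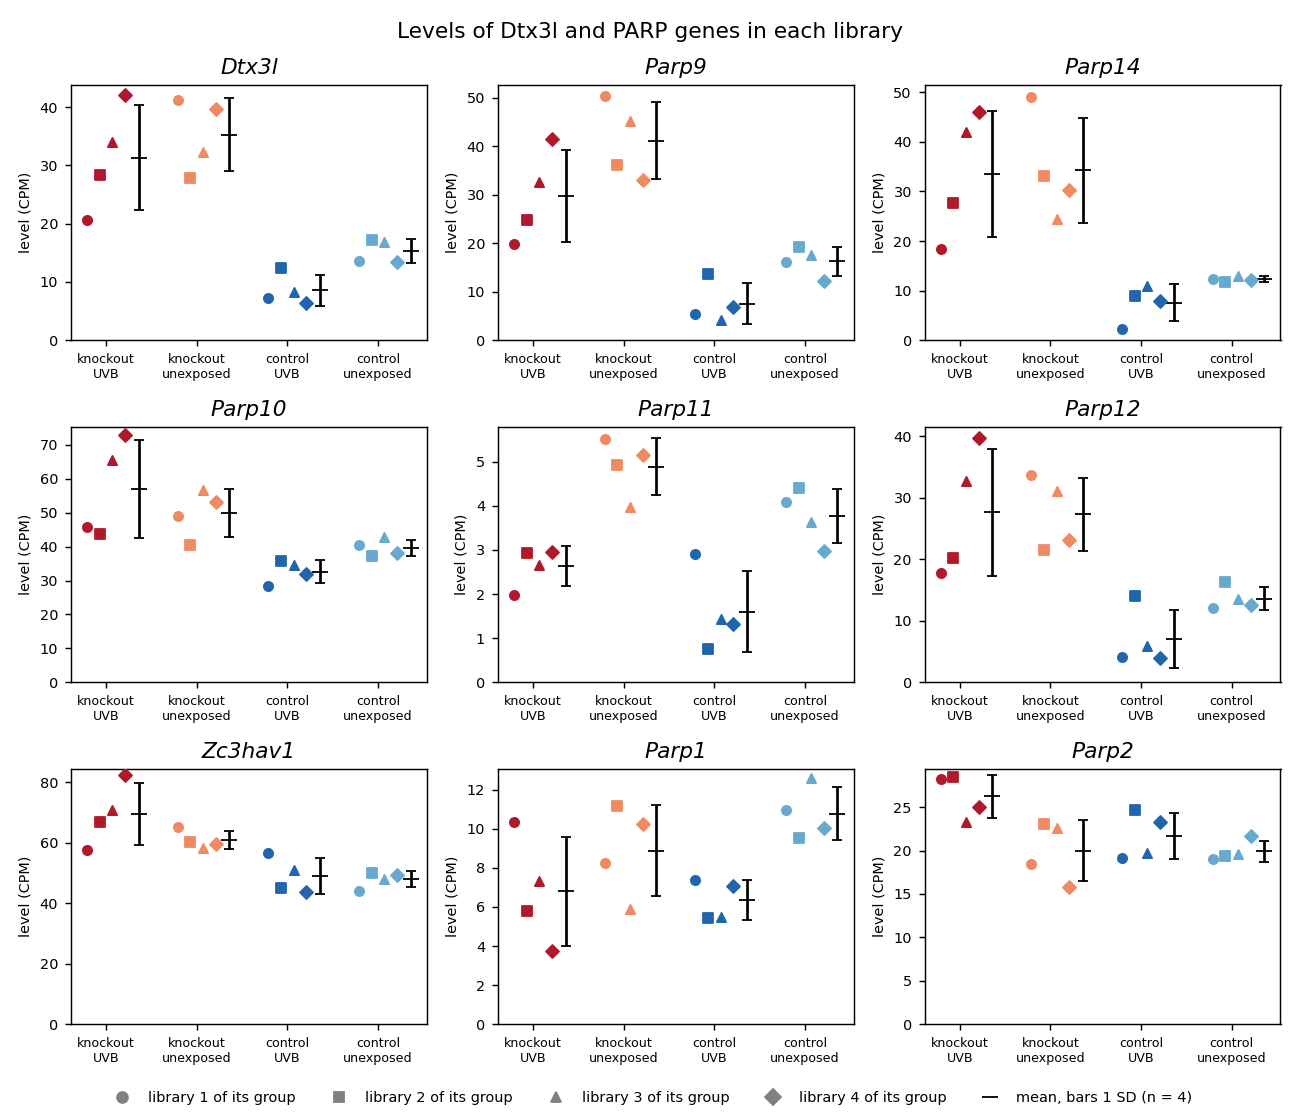
Level of each member in CPM (vertical axes, each from 0) in every library of the exposed knockout, unexposed knockout, exposed control and unexposed control groups, with a marker per library and the mean ± 1 SD beside it (n = 4). Dtx3l, Parp9, Parp14 and Parp12 stand higher in both knockout groups than in both control groups, and in exposed knockouts library 4 is the highest for all 7 interferon-induced members.

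The third comparison asked what UVB did to these genes in control epidermis. Dtx3l, Parp9, Parp11 and Parp12 fell within 6 h and were 1.79-fold to 2.35-fold lower than in unexposed controls. Parp14, Parp10 and Zc3hav1 were not called. UVB changed a large share of all genes, 18% being called lower in controls, so that 4 of 7 lower is to be read against that share. The median log2 fold change of the 7 was -0.84, against -0.02 over all genes tested.

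Dtx3l averaged 8.54 ± 2.65 CPM in exposed controls and 15.3 ± 2.06 CPM in unexposed controls (SD, n = 4 each). The groups did not overlap, and Dtx3l fell by 0.84 on the log2 scale (SE 0.22, edgeR adjusted p = 0.00499). Parp9 averaged 7.56 ± 4.25 CPM in exposed controls and 16.3 ± 3.01 CPM in unexposed controls (SD, n = 4 each). Exposed control library 2 lay inside the unexposed range of Parp9, and the fall was 1.10 on the log2 scale, that is a log2 fold change of -1.10 (SE 0.30, edgeR adjusted p = 0.00738). Parp11 averaged 1.60 ± 0.920 CPM in exposed controls and 3.77 ± 0.621 CPM in unexposed controls (SD, n = 4 each). The groups just missed each other, and the log2 fold change was -1.23 (SE 0.36, edgeR adjusted p = 0.0113). With only the 2 groups in the fit, Parp11 was not called (edgeR adjusted p = 0.0535).

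Parp12 averaged 7.05 ± 4.76 CPM in exposed controls and 13.6 ± 1.91 CPM in unexposed controls (SD, n = 4 each). Exposed control library 2, with 14.1 CPM, lay inside the unexposed range, and the other 3 exposed libraries lay below 6 CPM. The log2 fold change was -0.94 (SE 0.34, edgeR adjusted p = 0.0401), and -1.60 without exposed control library 2 (edgeR adjusted p = 0.000122). The call was lost without any other single library, which are unexposed control library 1, 2, 3 or 4 (edgeR adjusted p = 0.0543, 0.103, 0.0774 and 0.0619) and exposed control library 1, 3 or 4 (0.123, 0.113 and 0.114). Parp14 averaged 7.57 ± 3.72 CPM in exposed controls and 12.3 ± 0.532 CPM in unexposed controls, and Parp10 averaged 32.6 ± 3.34 CPM in exposed controls and 39.6 ± 2.48 CPM in unexposed controls (SD, n = 4 each). In both genes all exposed libraries lay below all unexposed ones, as for 17.5% of all genes tested. The log2 fold changes of -0.70 for Parp14 (edgeR adjusted p = 0.152) and -0.28 for Parp10 (edgeR adjusted p = 0.188) were not called. Zc3hav1 averaged 49.0 ± 5.93 CPM in exposed controls and 47.8 ± 2.61 CPM in unexposed controls (SD, n = 4 each), with a log2 fold change of 0.03 (edgeR adjusted p = 0.862) whose sign turned with the scaling.

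Markers of cell types moved with UVB in controls as well. Krt5 fell (1.74-fold lower, edgeR adjusted p = 0.00819), as did the leukocyte gene Ptprc (2.29-fold lower, edgeR adjusted p = 0.00416) and the T cell gene Cd3g (1.97-fold lower, edgeR adjusted p = 0.00655). The macrophage marker Cd68 rose 5.77-fold (edgeR adjusted p = 2.66e-08), and Cd207, Cxcr2, Cd14, Il2rb and Pmel also rose. By list, 2 of 6 monocyte and macrophage genes rose, while Adgre1 of the same list was 1.68-fold lower without a call. Of 10 Langerhans cell genes 1 rose and 1 fell, as did 1 and 1 of 7 T cell genes. Of 5 keratinocyte genes 1 fell, Krt5. Krt14, Krt10 and Krt1 had log2 fold changes of 0.92, 0.46 and 0.43 and Trp63 of -0.11, without a call. Of all genes tested, 17.7% were called higher and 18% lower. The part of these shifts, and of the mitochondrial shares given above, was not tested.

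In knockout epidermis, UVB gave no call among the 7 interferon-induced members. The background was 18.1% of all genes tested called higher and 14.1% called lower, and 1 of the 7, Parp11, had an unadjusted p under 0.05, as had 39.8% of all genes tested. Dtx3l averaged 31.3 ± 8.99 CPM in exposed knockouts and 35.2 ± 6.23 CPM in unexposed knockouts (SD, n = 4 each), a log2 fold change of -0.17 (SE 0.21, edgeR adjusted p = 0.613). Parp9 averaged 29.7 ± 9.47 CPM in exposed knockouts and 41.2 ± 8.01 CPM in unexposed knockouts (SD, n = 4 each), a log2 fold change of -0.47 (SE 0.29, edgeR adjusted p = 0.253). These groups overlapped in both genes. Parp14 and Parp12 had log2 fold changes of -0.03 (SE 0.36) and 0.01 (SE 0.34), and Parp10 and Zc3hav1 of 0.19 each (SE 0.16 and 0.12), all with overlapping groups.

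Parp11 averaged 2.64 ± 0.462 CPM in exposed knockouts and 4.89 ± 0.655 CPM in unexposed knockouts (SD, n = 4 each). Every exposed library lay below every unexposed one, as for 16.1% of all genes tested. The log2 fold change of -0.89 was not called (SE 0.36, edgeR adjusted p = 0.063), but was called with DESeq2 (adjusted p = 0.0158), with upper-quartile scaling (edgeR adjusted p = 0.0421) and with only the 2 groups in the fit (edgeR adjusted p = 0.0112).

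Because Dtx3l and Parp9 fell with UVB in controls and were not called in knockouts, the difference between these UVB responses was itself tested. No member was called, and of 17741 genes 0 were (0.0%) with edgeR, against 43 with DESeq2. At an unadjusted p under 0.05 there were 1043 genes (5.88%) with edgeR, 2 of the 7 interferon-induced members among them, Dtx3l and Parp10. All 7 differences were positive, between 0.16 and 0.96 on the log2 scale, with a median of 0.63 against 0.05 over all genes tested. Dtx3l had a difference of 0.67 (SE 0.31, edgeR adjusted p = 0.833) and Parp12 of 0.96 (SE 0.48, edgeR adjusted p = 0.857). The UVB responses of the genotypes were therefore not shown to differ for these genes.

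**Figure D2:**
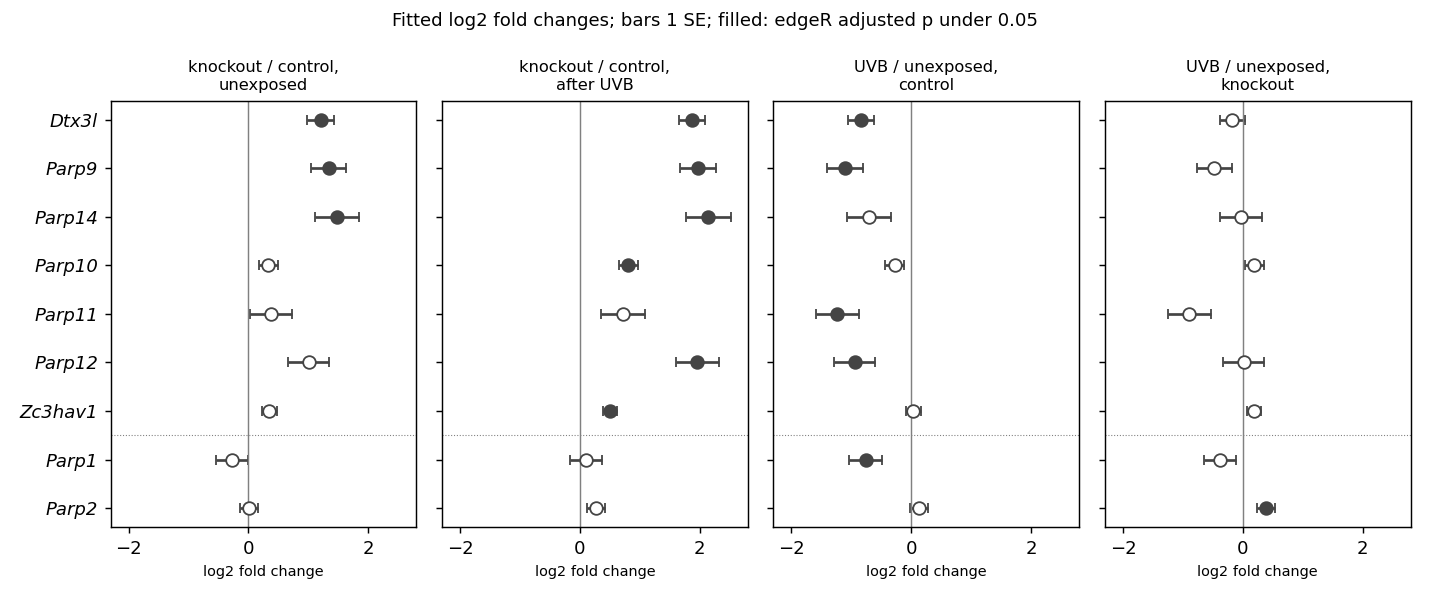
Fitted log2 fold change (horizontal axes) of each member in the knockout over control comparisons, unexposed and after UVB, and in the UVB over unexposed comparisons of each genotype, with bars of 1 SE and filled points where the edgeR adjusted p is under 0.05. The 7 interferon-induced members lie at or above 0.33 in both genotype comparisons, and 4 of them fall in the UVB comparison of controls.

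Parp1 and Parp2 served as the constitutive comparison. Parp1 (ENSMUSG00000026496, chr1:180568924-180601254, plus strand) encodes the main enzyme that makes ADP-ribose chains at DNA breaks. It read 10.4, 5.79, 7.35 and 3.73 CPM in exposed knockout libraries 1 to 4, against 7.37, 5.45, 5.48 and 7.09 CPM in exposed control libraries. It read 8.27, 11.2, 5.87 and 10.2 CPM in unexposed knockout libraries, against 10.97, 9.51, 12.6 and 10.03 CPM in unexposed control libraries. The genotypes overlapped in both conditions, and the log2 fold changes of 0.10 after UVB (SE 0.27, edgeR adjusted p = 0.89) and -0.28 unexposed (SE 0.27, edgeR adjusted p = 0.822) were not called. In controls, all exposed libraries lay below all unexposed ones, as for 17.5% of all genes tested. Parp1 fell in controls by 0.76 on the log2 scale (SE 0.27, edgeR adjusted p = 0.0318), where 18% of all genes tested were called lower. The call was lost without unexposed control library 1 or 3 (edgeR adjusted p = 0.0604 and 0.0859) or exposed control library 2 or 3 (0.0578 and 0.0718). In knockouts the log2 fold change with UVB was -0.38 (SE 0.27, edgeR adjusted p = 0.317).

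Parp2 (ENSMUSG00000036023, chr14:50807841-50821301, plus strand) encodes a smaller enzyme of the same kind. It read 28.2, 28.5, 23.3 and 25.0 CPM in exposed knockout libraries, against 18.5, 23.1, 22.6 and 15.8 CPM in unexposed knockout libraries. It read 19.2, 24.6, 19.8 and 23.3 CPM in exposed control libraries, against 19.0, 19.4, 19.6 and 21.7 CPM in unexposed control libraries. The exposed knockouts lay just above the unexposed ones, as for 19.7% of all genes tested, and the exposed controls overlapped with the unexposed ones. Parp2 rose 1.31-fold with UVB in knockouts (log2 fold change 0.39, SE 0.15, edgeR adjusted p = 0.0492), where 18.1% of all genes tested were called higher. This call was lost under each of the other methods (DESeq2 adjusted p = 0.0557, and edgeR adjusted p = 0.135 with upper-quartile scaling, 0.189 without the filter on low counts and 0.111 with only the 2 groups). It was also lost without unexposed knockout library 1 or 4 (edgeR adjusted p = 0.123 and 0.249) or exposed knockout library 1, 2 or 4 (0.122, 0.139 and 0.123). Its log2 difference between genotypes was 0.27 after UVB (SE 0.15, edgeR adjusted p = 0.314) and 0.01 unexposed (SE 0.15, edgeR adjusted p = 0.997).

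Levels between genes were compared per length, as RPKM (CPM divided by the length of merged GENCODE exons in kb). In unexposed controls the order was Parp10 with 9.26 RPKM, Zc3hav1 with 7.34 RPKM and Parp2 with 5.48 RPKM, each apart from the next over all 4 libraries. Parp12, Parp9, Dtx3l and Parp1 followed with 3.41, 3.35, 2.67 and 2.04 RPKM, and each overlapped with its neighbour in the order. Parp14 with 1.33 RPKM and Parp11 with 0.537 RPKM stood apart at the bottom. In exposed knockouts Parp10 with 13.4 RPKM and Zc3hav1 with 10.6 RPKM still led and overlapped with each other. There Parp2, Parp12, Parp9, Dtx3l and Parp14, at 7.23, 6.91, 6.09, 5.46 and 3.60 RPKM, formed an overlapping chain. Parp1 with 1.29 RPKM and Parp11 with 0.375 RPKM came last. Parp2 thus lay above Parp12, Parp9 and Dtx3l in every library of unexposed controls, and overlapped with each of their ranges in exposed and unexposed knockouts, apart from Parp9 in unexposed knockouts.

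**Figure D3:**
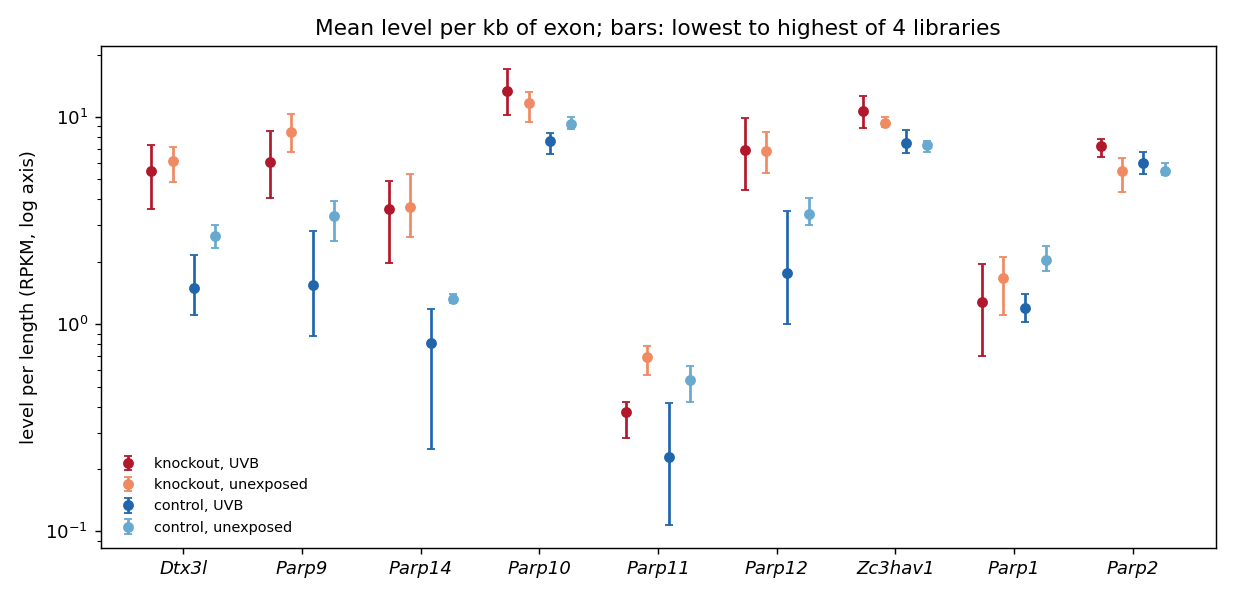
Mean level per length of each member in RPKM (vertical log axis) in exposed knockout, unexposed knockout, exposed control and unexposed control epidermis, with bars from the lowest to the highest of 4 libraries. Parp10, Zc3hav1 and Parp2 are the 3 highest in both control groups, and Parp11 is the lowest in every group.

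Dtx3l and Parp9 lie head to head on opposite strands and overlap by 682 bases. Their exons share 458 bases, at chr16:35938694-35939151, which is 8.0% of the exon length of Dtx3l and 9.4% of that of Parp9. The sources do not give the strand setting of the counting, and without strand reads in this stretch cannot be assigned to either gene. The log2 ratio of Dtx3l to Parp9 counts averaged 0.08 ± 0.08 in exposed knockouts, -0.22 ± 0.33 in unexposed knockouts, 0.28 ± 0.52 in exposed controls and -0.08 ± 0.16 in unexposed controls (SD, n = 4 each). In the 4 comparisons between groups the ratios overlapped. Knockout minus control was -0.19 after UVB (two-sided exact permutation test over libraries, p = 0.543, adjusted p = 0.543) and -0.14 unexposed (exact p = 0.457, adjusted p = 0.543). Exposed minus unexposed was 0.36 in controls (exact p = 0.257, adjusted p = 0.514) and 0.30 in knockouts (exact p = 0.143, adjusted p = 0.514). With 4 libraries against 4 the smallest p this test can give is 0.0286. A change in the balance of the pair was therefore not shown.

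Genes next to this locus were read as well. Parp14 lies 55.0 kb from Dtx3l. Of the 6 nearest protein-coding neighbours, 3 on each side, 5 were tested (Dirc2, Hspbap1, Kpna1, Wdr5b and Fam162a) and Sema5b was not. None of the 5 was called by edgeR between genotypes. Of all genes tested, 4.68% were called in either direction after UVB and 2.1% unexposed. The log2 fold changes of the 5 ran from -0.27 to 0.97 after UVB and from -0.22 to 0.53 unexposed. These lay below the values of Parp14, Dtx3l and Parp9 in each comparison. The upper ends were Wdr5b after UVB and Fam162a unexposed. Hspbap1, next to Parp14, averaged 16.2 CPM in exposed knockouts and 15.8 CPM in exposed controls. Kpna1, which encodes a nuclear import receptor and lies next to Parp9, averaged 62.0 CPM in exposed knockouts and 74.8 CPM in exposed controls. With UVB, Dirc2 fell in both genotypes, with log2 fold changes of -0.79 in knockouts (edgeR adjusted p = 0.0165) and -1.22 in controls (edgeR adjusted p = 0.000577).

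Parp12 and Zc3hav1 share a region of chromosome 6 as well, but lie 732 kb apart with 8 genes between them. Of the 14 protein-coding genes between and around them, 13 were tested. After UVB 1 of the 13 was called higher, where 2.36% of all genes tested were. This was Slc37a3, at 12.2 CPM in exposed knockouts and 6.05 CPM in exposed controls (log2 fold change 1.01, edgeR adjusted p = 0.00641). None of the 13 was called by edgeR in the unexposed genotypes, where 2.1% of all genes tested were. Log2 fold changes of the 13 ran from -0.57 to 2.82 after UVB and from -0.79 to 0.35 unexposed. The 2.82 was D630045J12Rik, at 0.509 CPM in exposed knockouts and 0.0641 CPM in exposed controls, which was not called (edgeR adjusted p = 0.065). Parp10 shares 205 exon bases, 4.8% of its exon length, with the more abundant gene Plec on the same strand, so its count is uncertain to that extent.

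**Figure D4:**
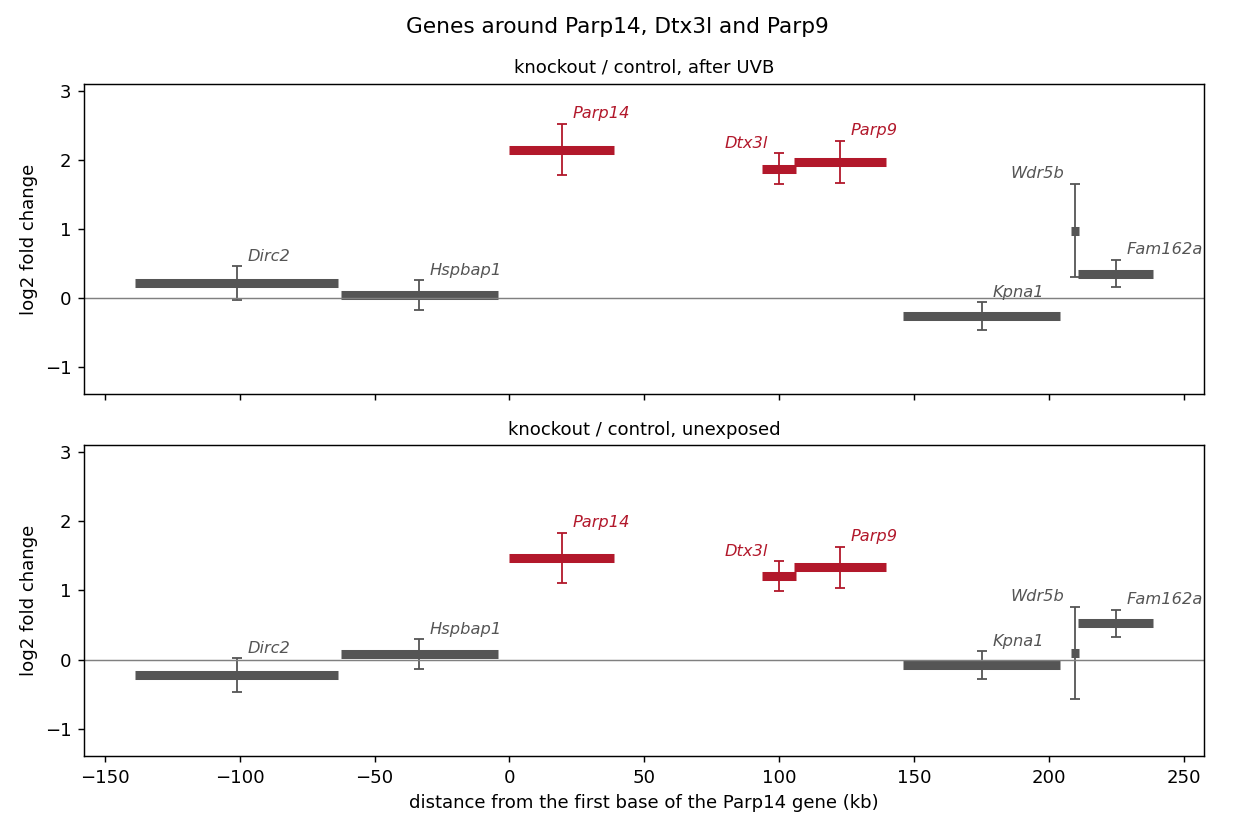
Fitted log2 fold change (vertical axes, bars 1 SE) of the genes around Parp14, Dtx3l and Parp9 against distance from the first base of Parp14 in kb, for knockout over control after UVB and unexposed, where each horizontal bar spans a gene. The 3 members lie between 1.20 and 2.15, and the 5 tested neighbours between -0.27 and 0.97.

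Within groups, library values of Dtx3l, Parp9, Parp14, Parp10 and Parp12 moved together, whereas those of Parp11 did not follow them and those of Zc3hav1 mostly followed them less. In exposed knockouts, library 4 was the highest for all 7 and library 1 the lowest for 6 of 7, Parp10 being the exception. In unexposed knockouts, library 1 was the highest for 6 of 7. In exposed controls, library 2 was the highest for Dtx3l, Parp9, Parp10 and Parp12. After subtracting group means, the correlation of log2 CPM over the 16 libraries was 0.398 to 0.876 for the 6 pairs among Dtx3l, Parp9, Parp14 and Parp12 (median 0.645), and -0.429 to 0.876 for the 21 pairs of all 7 (median 0.456). Parp10 had values in the range of the 6 pairs, with 0.679 for Dtx3l, 0.522 for Parp9, 0.536 for Parp14 and 0.66 for Parp12. Parp11 had negative values with Dtx3l, Parp9, Parp14, Parp10 and Parp12 (-0.118, -0.313, -0.403, -0.202 and -0.429) and a positive one with Zc3hav1 (0.643). Zc3hav1 had 0.456 with Dtx3l, but 0.106 with Parp9 and 0.0741 with Parp14. Parp1 tended the other way, with -0.608 to 0.057 against the 7 (median -0.474), and in exposed knockouts its highest library was 1 and its lowest was 4. These values share the libraries and their scaling and are given as descriptions.

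The genes whose pattern over the 16 libraries was most like that of Dtx3l were Eif2ak2, which encodes the double-stranded RNA kinase PKR, with a Pearson r of log2 CPM of 0.973, then Oas1a (0.966), Parp12 (0.964), Oas1g (0.961) and Usp18 (0.959). Oas1a and Oas1g encode oligoadenylate synthetases and are close copies whose reads may be split, and Usp18 removes ISG15 from proteins. Parp9 was the 6th (0.956), Parp14 the 23rd (0.91) and Parp10 the 39th (0.878). Zc3hav1 stood at rank 221 (0.763) and Parp11 at rank 1138 (0.59), while Parp2 and Parp1 had r of 0.0731 and -0.0469. The genes most like Parp1 were Sgk3 (0.884), Scmh1 (0.882), 2610008E11Rik (0.874), Pip4k2a (0.872) and Shpk (0.861), of which none is a member. All of these values include the differences between the groups.

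Genes for the machinery that activates interferon-induced genes were read beside the members. Whether their changes bear on those of the members was not tested. Of the 6 genes of interferon receptor signalling reported here, 2 rose in exposed knockouts against exposed controls. Stat2 read 50.8 to 103 CPM in exposed knockouts against 28.9 to 39.7 CPM in exposed controls, without overlap. It rose by a log2 fold change of 1.10 (SE 0.19, edgeR adjusted p = 0.00218) and Irf9 by 0.77 (SE 0.17, edgeR adjusted p = 0.0108). Unexposed, 2 of 6 rose in knockouts, Stat2 (log2 fold change 0.99, edgeR adjusted p = 0.00786) and Irf9 (0.64, edgeR adjusted p = 0.0492). The shares of all genes tested that were called higher were 2.36% after UVB and 0.964% unexposed. The receptor genes Ifnar1 and Ifnar2 and the kinase genes Jak1 and Tyk2 were not called between genotypes. With UVB, 3 of 6 fell in knockouts (Jak1, Tyk2, Stat2) and 1, Ifnar1, rose, where 14.1% of all genes tested fell and 18.1% rose. In controls 3 of 6 fell (Jak1, Tyk2, Stat2), where 18% of all genes tested fell.

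The other 8 PARP genes (Parp3, Parp4, Parp6, Parp8, Parp16, Tiparp, Tnks, Tnks2) gave no edgeR call between genotypes, where 4.68% of all genes tested were called in either direction after UVB and 2.1% unexposed. Their median log2 fold changes were 0.11 after UVB and 0.23 unexposed. Unexposed, the values ran from -0.36 for Parp6 to 0.52 for Tiparp and 0.60 for Parp8 (edgeR adjusted p = 0.365, 0.134 and 0.0812). Tiparp, a mono-ADP-ribosyltransferase induced by the aryl hydrocarbon receptor, rose with UVB in both genotypes. It averaged 91.4 ± 19.3 CPM in exposed knockouts and 40.3 ± 9.01 CPM in unexposed knockouts, and 118 ± 11.9 CPM in exposed controls and 28.1 ± 4.67 CPM in unexposed controls (SD, n = 4 each). The log2 fold changes were 1.18 in knockouts (SE 0.17, edgeR adjusted p = 2.22e-05) and 2.07 in controls (SE 0.18, edgeR adjusted p = 3.01e-08). Tnks, Parp4 and Parp8 fell with UVB in both genotypes, and Parp6 in controls. In knockouts 3 of 8 fell and 1 rose, where 14.1% of all genes tested fell and 18.1% rose. In controls 4 of 8 fell and 1 rose, where 18% of all genes tested fell and 17.7% rose. Tnks encodes tankyrase, which marks axin with ADP-ribose, and had log2 fold changes of -0.72 in knockouts and -0.83 in controls.

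Among 11 genes for cofactors, readers and erasers of ADP-ribose, none was called by edgeR between genotypes. Of all genes tested, 4.68% were called in either direction after UVB and 2.1% unexposed. The median log2 fold change of the 11 was -0.02 both after UVB and unexposed. With UVB, 5 of 11 fell and 1 rose in knockouts, where 14.1% of all genes tested fell and 18.1% rose. In controls 3 of 11 fell and 1 rose, where 18% of all genes tested fell and 17.7% rose. Macrod1, a hydrolase that removes single ADP-ribose units, averaged 11.3 CPM in exposed knockouts and 30.3 CPM in unexposed knockouts (log2 fold change -1.42, edgeR adjusted p = 1.54e-05), and 17.2 CPM in exposed controls and 32.7 CPM in unexposed controls (log2 fold change -0.93, edgeR adjusted p = 0.00084). Chd1l, a chromatin remodeller that is switched on by ADP-ribose chains, and Aplf, a repair factor that binds them, also fell in both. Adprs, which cuts ADP-ribose from serine, rose in both, by 0.31 in knockouts and 0.33 in controls on the log2 scale.

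Of the 4 other Deltex genes, 3 were tested, and the edgeR call among them was Dtx2, which fell with UVB in controls (log2 fold change -0.74, edgeR adjusted p = 9.79e-05). Of the 4 genes listed with ZAP, which includes its partners Trim25, Khnyn and N4bp1 and its relative Zc3hav1l, none was called by edgeR between genotypes. N4bp1 rose with UVB in both genotypes, and Trim25 fell in controls. Of 8 tested genes of NAD synthesis, which supplies the substrate of PARP enzymes, Naprt rose in exposed knockouts against exposed controls (26.8 CPM and 17.5 CPM, log2 fold change 0.62, edgeR adjusted p = 0.0385). Nmnat3 fell with UVB in both genotypes, with log2 fold changes of -1.52 in knockouts and -1.45 in controls. Of the 8 genes of NAD synthesis, 1 fell in knockouts and 3 in controls. For the calls in these lists, 14.1% of all genes tested fell and 18.1% rose with UVB in knockouts. In controls 18% fell and 17.7% rose, and between exposed genotypes 2.36% were called higher.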

How the data were processed

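RNA was measured in 16 epidermis libraries, 4 in each of 4 groups taken from the labels. The deposited values are raw read counts per Ensembl gene. FastQC, STAR, HTSeq and DESeq2 are named as the authors' tools per the submitters' processing notes, while tool versions, genome build and strand setting were not given in the sources used here. Library totals were 33.0 to 53.3 M counts. Even numbers made up 68.8% of the counts between 2 and 101, against 50% of those integers, for a reason the sources do not give. Columns were joined to samples by library name. Replicate numbers follow accession order and pair nothing.

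The model fits used edgeR 4.0.16 (R 4.3.3). Genes were filtered by filterByExpr, which kept 17741 of 49585, libraries were scaled by TMM, and a robust quasi-likelihood model had 1 mean per group over all 16 libraries. P-values of the F tests (two-sided) were adjusted over all tested genes by the Benjamini-Hochberg method and called under 0.05. Each SE is the log2 fold change divided by the square root of F. The common biological coefficient of variation was 0.445. CPM used TMM-scaled library sizes, and RPKM divided CPM by merged exon length from GENCODE M21 (GRCm38). Among the genes called between unexposed genotypes, 171 were higher and 202 lower in knockouts, against 180 and 136 with upper-quartile scaling. Sequences came from RefSeq (GRCm38.p6).

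The members and lists were chosen with earlier results of these data known. Named are all 9 members, members of each list with the smallest p in a comparison, the nearest protein-coding neighbours, and the 5 genes most like Dtx3l and Parp1. One gene of a list is not reported here. Alternatives were DESeq2 1.42.0, upper-quartile scaling, no filter, 2 groups per fit, a ratio of summed counts and leaving out each library. The fits were tested on simulated data.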

Additional observations from a re-analysis of the deposited data

How the results depend on the processing

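The members called numbered 1 to 2 of 7 (unexposed genotypes), 5 to 6 (exposed genotypes), 3 to 4 (UVB in controls) and 0 (UVB in knockouts) when each library was left out in turn. The last count was 1, Parp11, with DESeq2, with upper-quartile scaling and with only the 2 groups. Genes called between unexposed genotypes numbered 373, against 775 with DESeq2 and 134 to 435 with a library left out. The lower counts came without control library 2, 3 or 4 (225, 144 and 134) or knockout library 1 or 2 (148 and 168). Between exposed genotypes they numbered 830, against 1644 with DESeq2 and 419 to 1356 with a library left out. They numbered 492, 419 and 520 without exposed knockout library 1, 2 or 3, and 1356 and 529 without exposed control library 2 or 3. For the difference of UVB responses, 43 were called with DESeq2, 2 without the filter and 0 to 2 with a library left out. Parp14 between unexposed genotypes was not called with upper-quartile scaling (edgeR adjusted p = 0.051) or without the filter (0.118), nor was Parp12 with UVB in controls without the filter (0.0763). Some values near 0 changed sign, and the cause was not tested. For Parp12 with UVB in knockouts they were -0.030 with DESeq2, -0.032 with the 2 groups, -0.061 with upper-quartile scaling, -0.044 without the filter, and -0.27 to 0.17 with a library left out. For Zc3hav1 with UVB in controls they were -0.0029 with upper-quartile scaling, -0.036 without the filter, and -0.051 to 0.084 with a library left out. With a library left out, Parp14 (-0.28 to 0.19) and Parp10 (-0.0040 to 0.30) changed sign with UVB in knockouts. So did Parp2 with UVB in controls (-0.0017 to 0.17) and between unexposed genotypes (-0.066 to 0.13), and Parp1 (-0.17 to 0.32) and the Dtx3l to Parp9 ratio (-0.34 to 0.032) between exposed genotypes. No paired analysis was possible because the replicate numbers follow accession order and name no shared animal, litter or day.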
